A study of Mus musculus with 6 samples.

Results

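The genes described here are the nuclear genes whose symbols name subunits or assembly factors of the mitochondrial respiratory complexes, in cultured muscle fibro-adipogenic progenitors given prostaglandin E2 (PGE2) or vehicle. They were taken from the table of counts per gene by a pattern on the symbol that covers the Nduf, Sdh, Uqcr, Cox4 to Cox8 and Atp5 names with Cyc1 and Cycs, so the pattern itself uses no measured value. The pattern found 93 of 41388 genes. They comprise 7 core subunits, 29 accessory subunits and 7 assembly factors of complex I, 4 subunits of complex II, 10 genes of complex III and cytochrome c, and 19 of complex IV. Complex V, the ATP synthase, has 5 genes of the F1 head, 10 of the Fo part and the stalks, and 2 further genes named after it, Atp5s and Atp5sl. The F1 head group counts the central stalk genes Atp5c1, Atp5d and Atp5e, so the stalk genes grouped with the Fo part are those of the peripheral stalk. Atp5sl is listed in the GENCODE annotation under a name of complex I assembly, Dmac2, so it was kept apart from the subunits. Ndufa4 carries a complex I name and was counted with complex IV, in which its protein is found.

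Fibro-adipogenic progenitors are mesenchymal cells of skeletal muscle that can turn into fibroblasts or fat cells. The cells were primary cultures from wild-type male mice, grown in serum with added fibroblast growth factor. They received either 500 nM PGE2 or vehicle daily for 2 days, and 3 libraries of polyadenylated RNA were made per group. Ages and numbers of mice are not in the labels, nor is the origin of libraries 1, 2 and 3, so the p-values measure the spread between these libraries, which may be technical.

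The respiratory chain passes electrons from NADH (complex I) and succinate (complex II) through ubiquinone to complex III, by cytochrome c to complex IV and on to oxygen, and the proton gradient this builds drives ATP synthase. Most subunits are encoded in the nucleus and imported, while a few catalytic ones are encoded in mitochondrial DNA, so both genomes have to supply parts of the same complexes. In muscle several complex IV subunits exist as a widely expressed form and a form of contractile tissue. PGE2 acts on cells through receptors of which several raise cyclic AMP.

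The 37 genes of the mitochondrial genome were listed at 0 in every library, so the partner subunits from that genome were not measurable here. Totals lay between 21006044 and 52730962 counts per library, with the lowest in vehicle library 2, and 3 counts amounted to 0.0569 to 0.143 CPM, the unit of counts relative to library size. Pdgfra, the surface receptor that marks these progenitors, was at 1122 to 1455 CPM over the 6 libraries, and Ptprc, which marks leukocytes, was at 0 in all of them. The 10 progenitor markers together summed to 7933, 12715 and 15787 CPM in vehicle libraries 1 to 3 and to 7622, 13649 and 19944 CPM in PGE2 libraries 1 to 3, so the sum was lower under PGE2 in number 1 and higher in numbers 2 and 3, and in the paired fit described below 2 of these markers rose and 2 fell. A list of 10 myogenic markers summed to 246, 83.4 and 60.6 CPM in vehicle libraries 1 to 3 and to 177, 29.7 and 29.2 CPM in PGE2 libraries 1 to 3, all 10 detected in some library. Pericyte and smooth muscle markers (6 genes) summed to 72.9 to 121 CPM under vehicle and 56.2 to 87.1 CPM under PGE2, adipocyte markers (7 genes) to 37.1 to 62.6 and 36.0 to 57.8 CPM, endothelial markers (5 genes) to 21.2 to 46.9 and 19.0 to 33.2 CPM, and 6 macrophage and leukocyte markers to 9.80 to 10.6 and 12.6 to 13.2 CPM. The myogenic, pericyte and endothelial sums were lower under PGE2 within each number. In the paired fit 5 of 8 tested myogenic, 3 of 6 pericyte and 1 of 4 endothelial markers fell, and 0 rose. Of 4 tested adipocyte markers 3 fell and 1 rose, with a median log2 fold change of -0.82. Of 4 tested macrophage and leukocyte markers 2 rose and 0 fell. That fit had 6.91% of all genes higher and 7.51% lower. The test without pairing, also below, called none of these markers. Their part in the results below was not tested. In bulk RNA, fewer cells of a type and less RNA per cell cannot be told apart.

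Levels were compared between genes as mean CPM in the vehicle libraries per kilobase of principal transcript, the transcript that the annotation ranks as the main protein-coding one. Atp5b, the catalytic beta subunit of ATP synthase, was highest at 540 CPM per kb, followed by Cox4i1 of complex IV at 470, the c-subunit gene Atp5g3 at 295, Cox8a at 274 and Atp5a1, the alpha subunit, at 272. The median level per kb was 194 for the F1 head, 166 for complex IV, 139 for the Fo part and stalks, 88.4 for complex III and cytochrome c, 81.2 for complex I accessory subunits, 71.9 for complex II and 52.2 for complex I core subunits. Complex I assembly factors, which help build the complex and are not part of it, had a median of 8.75 CPM per kb. These levels rest on annotated lengths, and the transcripts these cells use were not measured.

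**Figure D1:**
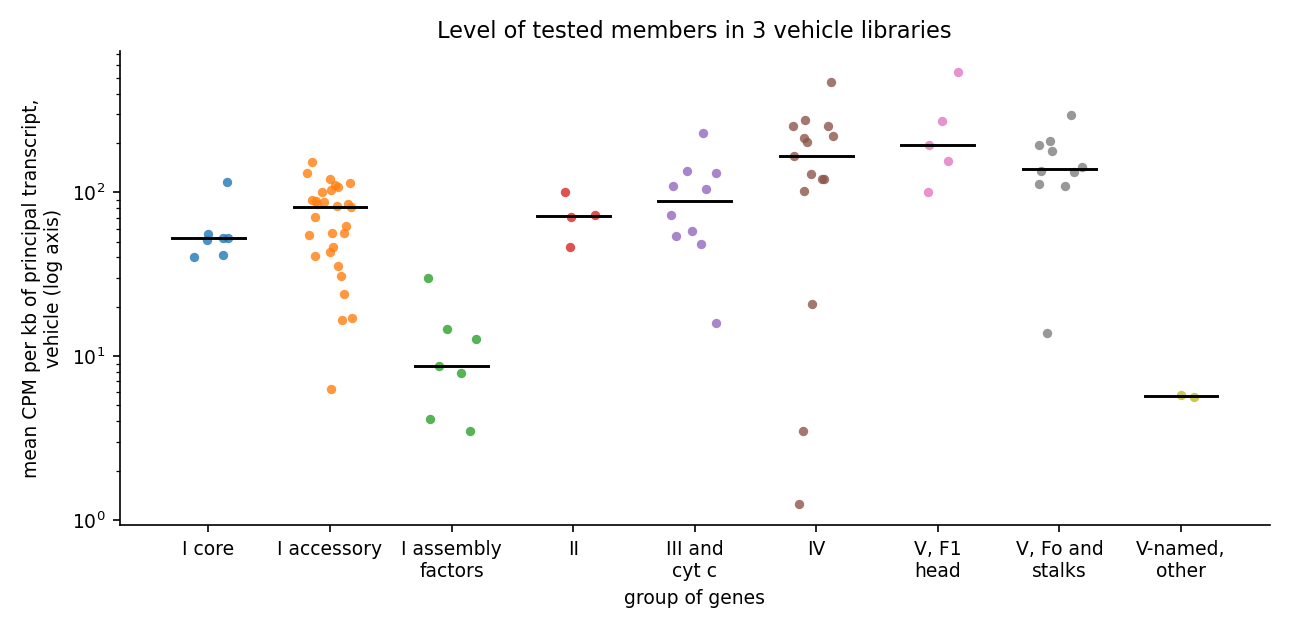
Mean CPM per kilobase of principal transcript in the 3 vehicle libraries, on a log axis, for the 89 tested genes, by group; each point is a gene and each bar the median of its group. Assembly factors of complex I, with a median of 8.75, lie below the subunits of every complex by median, and the genes at the bottom of complex IV are Cox7a1 and Cox4i2.

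Complex IV transcripts came almost wholly from the widely expressed isoforms. Cox6a1 stood at 253 CPM per kb against 0.445 for Cox6a2, the form of heart and muscle, and Cox8a at 274 against 0.539 for Cox8b, the corresponding form of Cox8. Cox7a2 was at 121 CPM per kb and its contractile counterpart Cox7a1 at 3.50, while Cox4i1 was at 470 and Cox4i2, a form of lung and low oxygen, at 1.26. Cox7b2 and Cox8c, isoforms of testis, each had counts in a single library, and Cox6b2, another testis form, was at 20.9 against 222 for Cox6b1. Cox6a2, Cox8b, Cox7b2 and Cox8c had too few counts to be tested, which left 89 of the 93 genes. Cox6a2 was at 0.581, 0.0946 and 0.231 CPM under vehicle and 0.301, 0.0775 and 0.163 CPM under PGE2. It was highest in vehicle library 1, the library with the largest myogenic sum, and the groups overlapped.

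With PGE2 most respiratory genes lay slightly above vehicle, and none passed the test that treats the 6 libraries as unrelated. The median log2 fold change, PGE2 over vehicle, was 0.26 over the 89 tested genes and -0.0010 over all 15186 genes tested. It was above 0 for 82 of 89, against 49.8% of all genes, and ranged from -0.22 for Cox6b2 to 0.59 for Cox7a1. In this unblocked edgeR fit 0 of 89 rose and 0 fell at an adjusted p of 0.05, where 0.211% of all genes rose and 0.132% fell. The lowest edgeR adjusted p was 0.0936, for Ndufa1, and 50 of the 89 had an unadjusted p under 0.05, as did 20.1% of all genes.

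A fit that compares libraries within numbers gave another count. After the mean of each group was taken off log2 CPM, vehicle and PGE2 libraries correlated at 0.621, 0.169 and 0.422 for numbers 1 to 3. PGE2 library 2 correlated more with vehicle library 3 (0.252) than with vehicle library 2, so for number 2 the match is not the closest one. In this paired fit 25 of the 89 rose and 0 fell, or 28.1% higher, where 6.91% of all genes rose and 7.51% fell (edgeR, Benjamini-Hochberg). DESeq2 without pairing called 14 higher and 0 lower, where it called 2.86% of all genes higher and 3.27% lower, and all 14 were among the 25. Without the filter on low counts the unblocked fit called 3, Ndufa1, Ndufs5 and Uqcrq, and these 3 also rose in the paired fit whichever number was left out. Of the 25 genes, 24 had PGE2 libraries all above vehicle libraries. Over the 89 genes this held for 50, or 56.2%, against 13.7% of all genes, and the reverse held for 1, Sdha, against 12.2%.

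The difference lay mostly in numbers 1 and 2. The median difference in log2 CPM between the PGE2 and the vehicle library was 0.36 in number 1, 0.35 in number 2 and 0.038 in number 3. All genes tested had medians of -0.0046, 0.011 and -0.00092. The PGE2 library was higher for 85, 83 and 56 of the 89 genes in numbers 1 to 3. It was higher in all 3 numbers for 54, or 60.7%, against 26.6% of all genes, and lower in all 3 for 2, Sdha and Atp5a1, against 25.5%. The paired count of 25 became 5 without number 1, 5 without number 2 and 69 without number 3, where 4.44%, 3.19% and 15.6% of all genes tested rose.

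The same contrast shows in the share of all counts that the 93 genes took. It was 0.924%, 0.892% and 0.960% in vehicle libraries 1 to 3 and 1.10%, 1.04% and 0.928% in PGE2 libraries 1 to 3. In number 3 the share was lower under PGE2, while the median after scaling by the trimmed mean of M values was slightly above 0. With libraries scaled by their totals alone, 28 genes and not 54 were higher in all 3 numbers, and the median fold change was 0.22.

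**Figure D2:**
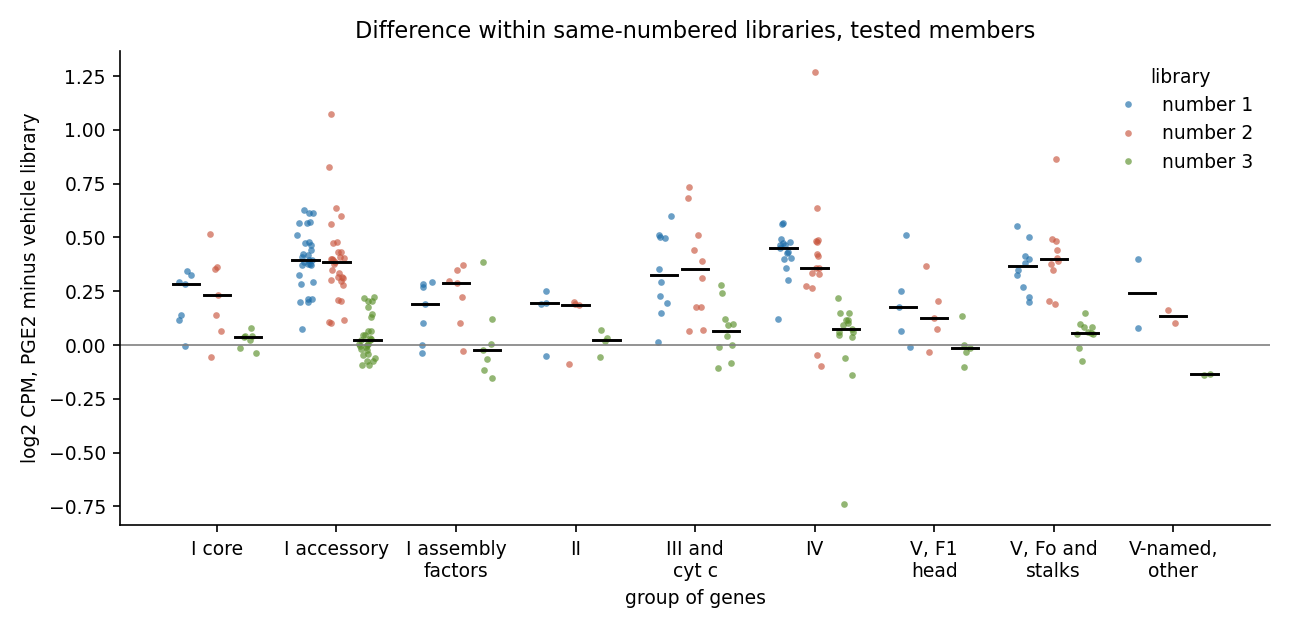
Difference in log2 CPM between the PGE2 and the vehicle library of the same number for each of the 89 tested genes, by group; points are genes, colours are library numbers and bars are medians. Numbers 1 and 2 lie mostly above 0 and number 3 lies around 0, with overall medians of 0.36, 0.35 and 0.038.

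Complex I receives electrons from NADH. Its 7 core subunits, which hold the flavin and the iron-sulfur clusters, had a median log2 fold change of 0.17. Of these, 0 rose in either edgeR fit or by DESeq2. In the unblocked fit 3 of 7 had an unadjusted p under 0.05, against 20.1% of all genes. Ndufs3 had the largest fold change of them, 0.29 ± 0.097 (SE; edgeR adjusted p = 0.173, or 0.0615 in the paired fit), from 53.7 ± 6.17 to 65.7 ± 3.67 CPM (SD, n = 3 each). Ndufs8 and Ndufs7, which carry iron-sulfur clusters near the ubiquinone site, were each at 0.25 (edgeR adjusted p = 0.166 and 0.187). Ndufs1, the largest iron-sulfur subunit, was at 111, 109 and 103 CPM under vehicle and 121, 105 and 106 CPM under PGE2. These values overlapped, with a log2 fold change of 0.04, or -0.0053 with totals alone as the scaling.

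Accessory subunits surround that core and are needed for its assembly and stability. All 29 had a log2 fold change above 0, with a median of 0.27, and 8 rose in the paired fit, where 6.91% of all genes did. Ndufa1 (ENSMUSG00000016427, chromosome X at 37187588 to 37191163), a small subunit of the membrane arm, was at 42.8, 45 and 52.1 CPM under vehicle and 65.4, 70.0 and 60.8 CPM under PGE2. Every PGE2 library lay above every vehicle library, and number 3 had the smallest gap. Its log2 fold change was 0.49 ± 0.096 (SE; edgeR adjusted p = 0.0936, or 0.00782 in the paired fit).

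Ndufs5 (ENSMUSG00000028648, chromosome 4 at 123712710 to 123718202), on the intermembrane space side of the membrane arm, was at 37.8, 33.8 and 43.7 CPM under vehicle and 56.1, 60.1 and 50.4 CPM under PGE2. The groups did not overlap, and vehicle library 3 was again the highest of its group and PGE2 library 3 the lowest. Its log2 fold change was 0.53 ± 0.111 (SE; edgeR adjusted p = 0.0962, or 0.0119 in the paired fit). Ndufc1, a small subunit of the membrane arm, went from 28.5, 28.7 and 32.4 CPM to 44.1, 43.5 and 35.8 CPM without overlap, a log2 fold change of 0.46 ± 0.103 (SE; edgeR adjusted p = 0.105, paired 0.0167). The other 5 that rose in the paired fit, named after their values were seen, were Ndufa3, Ndufa11, Ndufv3, Ndufs6 and Ndufb4, at log2 fold changes of 0.31 to 0.56 in that fit. Ndufa10 of the membrane arm had the smallest fold change, 0.06, with 97.7, 93.5 and 90.8 CPM under vehicle and 103, 100 and 89.8 CPM under PGE2, which overlapped.

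The 7 assembly factors of complex I had a median log2 fold change of 0.14. In the unblocked fit 2 of the 7 had an unadjusted p under 0.05, against 20.1% of all genes. At the adjusted threshold 0 rose in either edgeR fit or by DESeq2. Ndufaf4 was the closest, at 13.7, 11.8 and 12.3 CPM under vehicle and 14.8, 15.1 and 16.1 CPM under PGE2 (0.28 ± 0.097 SE; edgeR adjusted p = 0.187, paired 0.0877). It had its largest difference in number 3, unlike most respiratory genes. Ndufaf3 (0.26) and Ndufaf1 (0.19) also had groups that did not overlap. PGE2 libraries all lay above vehicle libraries for 3 of the 7 factors, against 13.7% of all genes. Ndufaf6 was the lowest at -0.05, with 4.6, 4.07 and 4.81 CPM under vehicle and 4.61, 3.99 and 4.43 CPM under PGE2.

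Complex II, succinate dehydrogenase, is the complex with no subunit from mitochondrial DNA, and it also belongs to the citric acid cycle. None of its 4 genes rose or fell in either edgeR fit or by DESeq2. In the unblocked fit 0 of them had an unadjusted p under 0.05, against 20.1% of all genes. The flavoprotein Sdha was at 291, 297 and 284 CPM under vehicle and 281, 279 and 273 CPM under PGE2, so every PGE2 library was below every vehicle library by a narrow gap (-0.07 ± 0.069 SE; edgeR adjusted p = 0.624, paired 0.56). The membrane anchor Sdhc went the other way without overlap, from 141, 147 and 154 CPM to 168, 169 and 157 CPM (0.16 ± 0.071 SE; edgeR adjusted p = 0.26, paired 0.161). The iron-sulfur subunit Sdhb and the anchor Sdhd had log2 fold changes of 0.15 and 0.13, with PGE2 libraries above vehicle libraries. With the correction by principal length described below, these 2 unblocked values were 0.00022 and -0.011.

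Complex III passes electrons from ubiquinone to cytochrome c. Of its 10 genes, cytochrome c included, 4 rose in the paired fit, where 6.91% of all genes did. The median log2 fold change of the 10 was 0.25. Uqcrq (ENSMUSG00000044894, chromosome 11 at 53427922 to 53430831), a small subunit that contacts cytochrome b, was at 77.7, 65.3 and 76.7 CPM under vehicle and 110, 105 and 90.7 CPM under PGE2. The groups did not overlap, and the lowest vehicle library was number 2. Its log2 fold change was 0.47 ± 0.102 (SE; edgeR adjusted p = 0.0973, or 0.00713 in the paired fit, the lowest paired value among the 89).

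Cycs (ENSMUSG00000063694, chromosome 6 at 50562563 to 50566538), cytochrome c itself, was at 61.7, 39.0 and 48.9 CPM under vehicle and 75.7, 64.9 and 59.4 CPM under PGE2. The groups overlapped because vehicle library 1 was above PGE2 library 3, while within each number PGE2 was higher, by 0.30, 0.73 and 0.28 in log2 CPM. It was the member of the 25 with overlapping groups (0.42 ± 0.172 SE; edgeR adjusted p = 0.242, or 0.0167 in the paired fit), and without number 2 it did not pass in the paired fit (edgeR adjusted p = 0.149). Uqcr11, a small peripheral subunit, went from 54.9, 57.6 and 63.0 CPM to 83.3, 82.0 and 67.4 CPM without overlap (0.41; edgeR adjusted p = 0.119, paired 0.0232). Uqcrc1, a core protein of the matrix side, was at 183, 166 and 171 CPM under vehicle and 184, 174 and 159 CPM under PGE2, which overlapped (-0.0061).

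**Figure D3:**
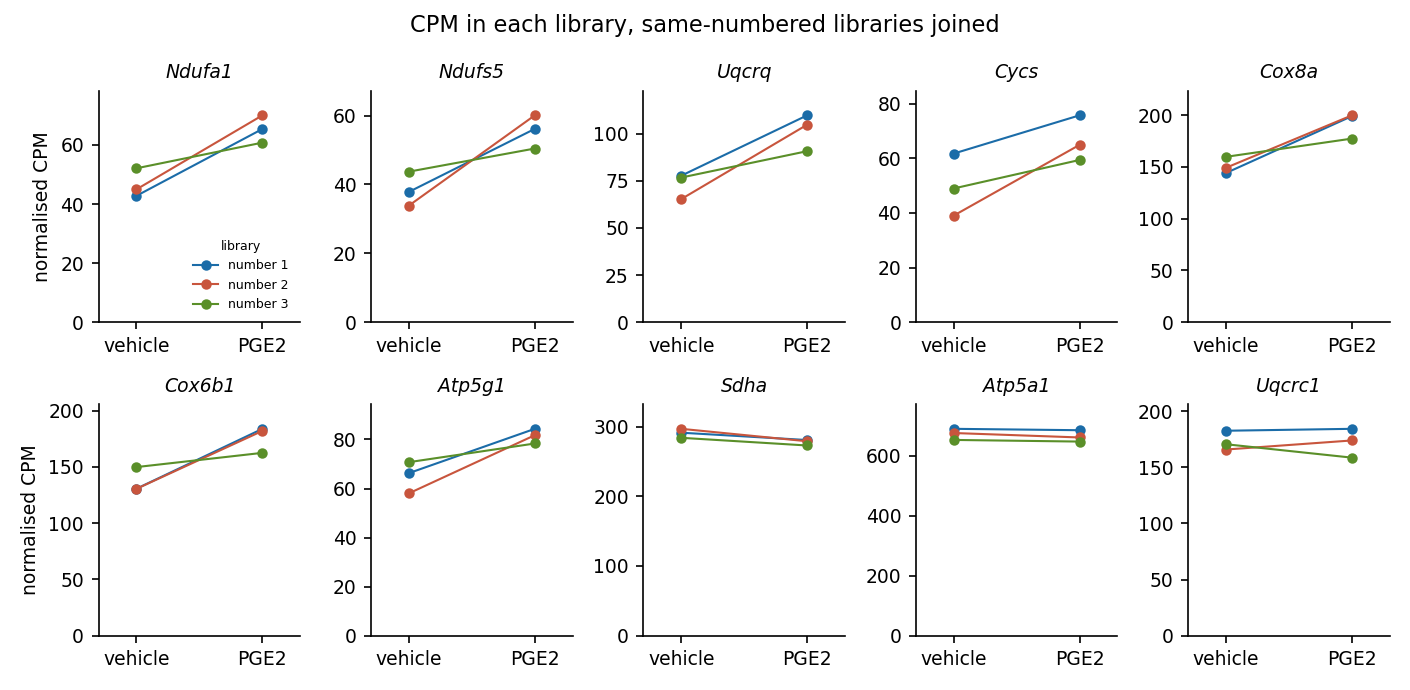
Normalised CPM of 10 respiratory genes in each library, with lines joining the vehicle and the PGE2 library of the same number; each panel has its own axis from 0. Ndufa1, Ndufs5, Uqcrq, Cox8a, Cox6b1 and Atp5g1 have every PGE2 library above every vehicle library with the flattest line in number 3, Cycs is higher within each number, and Sdha, Atp5a1 and Uqcrc1 are nearly level.

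Complex IV, cytochrome c oxidase, hands electrons to oxygen. Of its 15 tested genes 8 rose in the paired fit and 0 fell, where 6.91% of all genes rose and 7.51% fell. The median log2 fold change of complex IV, 0.32, was the largest of the groups. Cox8a, a small subunit of the inner membrane, was at 144, 149 and 160 CPM under vehicle and 199, 200 and 177 CPM under PGE2, without overlap (0.35 ± 0.081 SE; edgeR adjusted p = 0.111, paired 0.0186). Cox6b1, which bridges the monomers of the dimer, went from 131, 130 and 150 CPM to 184, 182 and 162 CPM, also without overlap (0.36 ± 0.089 SE; edgeR adjusted p = 0.116, paired 0.0206). Cox6a1, a regulatory subunit, went from 138, 138 and 157 to 189, 192 and 169 CPM (0.34; edgeR adjusted p = 0.123, paired 0.0254).

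Number 3 again had the smallest gap in all 3 of these genes. Cox7b rose in the paired fit at 0.29 (edgeR adjusted p = 0.0425), and the other 4 that did, named after their values were seen, were Cox6c, Cox5a, Cox7c and Cox5b at 0.31 to 0.39. Cox4i1, the most abundant by length, was at 325, 353 and 400 CPM under vehicle and 416, 428 and 383 CPM under PGE2, which overlapped (0.19 ± 0.101 SE; edgeR adjusted p = 0.345). Cox7a2l, which takes part in joining complexes III and IV, was at 160, 191 and 184 CPM under vehicle and 174, 185 and 167 CPM under PGE2, which overlapped (-0.02).

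Among the low isoforms, Cox7a1 and Cox4i2 were higher under PGE2 within each number, and Cox6b2 was higher in number 1 alone. Cox7a1 was at 1.49, 0.994 and 1.64 CPM under vehicle and 2.02, 2.46 and 1.82 CPM under PGE2, without overlap, at 0.59 ± 0.244 (SE; edgeR adjusted p = 0.235, paired 0.13). Cox4i2 was at 1.09, 1.14 and 0.531 CPM and at 1.64, 1.38 and 0.625 CPM, which overlapped (0.43 ± 0.431 SE, edgeR adjusted p = 0.607). Both of its libraries of number 3 were the lowest of their group. Cox6b2 was at 8.28, 12.3 and 16.1 CPM under vehicle and 10.2, 11.5 and 9.65 CPM under PGE2, so numbers 1 and 3 went in opposite directions (-0.22 ± 0.23 SE; edgeR adjusted p = 0.622).

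Complex V makes ATP. Among the 5 genes of its F1 head, where the catalysis takes place, the median log2 fold change was 0.06. In the paired fit 1 of the 5 rose, where 6.91% of all genes did. This was Atp5e, the small epsilon subunit of the central stalk (0.34, edgeR adjusted p = 0.0245). It went from 72.4, 84.0 and 89.2 CPM to 103, 108 and 97.8 CPM without overlap. With the correction by principal length described below, Atp5e did not pass in the paired fit (0.12, edgeR adjusted p = 0.168). The alpha subunit Atp5a1 was at 690, 676 and 653 CPM under vehicle and 686, 661 and 648 CPM under PGE2 (-0.02 ± 0.08 SE; edgeR adjusted p = 0.921). The beta subunit Atp5b was at 1138, 971 and 992 CPM and at 1192, 1059 and 991 CPM, which overlapped (0.06 ± 0.113 SE; edgeR adjusted p = 0.787). The delta subunit Atp5d was at 0.14 (edgeR adjusted p = 0.382).

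The Fo part holds the proton channel, and the peripheral stalk, whose genes are in this group, ties it to the head. All 10 genes of this group had a log2 fold change above 0, with a median of 0.29. In the paired fit 4 of them rose, where 6.91% of all genes did. Atp5g1, Atp5g2 and Atp5g3 encode the same mature c subunit of the rotor ring with different import sequences. Atp5g1 was at 66.3, 58.0 and 70.7 CPM under vehicle and 84.3, 81.7 and 78.3 CPM under PGE2, without overlap (0.32 ± 0.087 SE; edgeR adjusted p = 0.13, paired 0.0258). Atp5g3, the most abundant of the 3 per kb, was at 219, 199 and 221 CPM and at 275, 262 and 235 CPM, without overlap (0.27 ± 0.089 SE; edgeR adjusted p = 0.169), and Atp5g2 at 0.21 overlapped (edgeR adjusted p = 0.328).

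The stalk genes Atp5j (0.33; edgeR adjusted p = 0.0295) and Atp5h (0.28; edgeR adjusted p = 0.0404) rose in the paired fit, as did Atp5k of the membrane part, which was named after its values were seen (0.33; edgeR adjusted p = 0.0448). Atp5o, which joins the stalk to the head, was at 160, 162 and 168 CPM under vehicle and 183, 185 and 174 CPM under PGE2 without overlap (0.15; edgeR adjusted p = 0.275). With the correction by principal length described below, the unblocked log2 fold change of Atp5o was -0.029. Of the genes kept apart, Atp5s was at 0.15 and Atp5sl at 0.01 (-0.031 with totals alone as the scaling), and neither passed in either fit.

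Within complexes I and V the group that holds the catalytic part had the smaller median fold change. In complex I it was 0.17 for the core against 0.27 for accessory subunits. In complex V it was 0.06 for the F1 head, central stalk genes included, against 0.29 for the Fo part and stalks. The mean log2 CPM of complex I accessory subunits minus that of its core subunits was -0.58, -0.53 and -0.45 in vehicle libraries 1 to 3 and -0.39, -0.36 and -0.44 in PGE2 libraries 1 to 3. The PGE2 values were all above the vehicle values. For the Fo part and stalks minus the F1 head it was -1.28, -1.34 and -1.18 under vehicle and -1.12, -1.07 and -1.13 under PGE2, again without overlap. These differences have no test here, since the genes of a complex are not replicates.

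Transcript length differed along the same lines, and it went with the fold change over all genes. The median principal transcript was 955 bases long for the 89 genes and 2843 for all genes tested, and 65 of the 89 lay in the shortest of 5 groups of all genes by length. In that group the median log2 fold change was 0.17 over all 3021 genes and 0.27 over the 65. Median lengths there were 976 bases for all genes and 731 for the 65, so the group does not fully match lengths. The paired fit had 319 of the 3021 and 21 of the 65 higher. The Spearman correlation of log2 fold change with principal length was -0.42 across 15098 genes and -0.51 across the 89. With the longest transcript it was -0.41 and -0.34. After the correction by principal length described below, it was -0.0062 and -0.16 with principal length. All are descriptions across genes that share the same 6 libraries. The slope per doubling of length was -0.14, -0.18 and -0.0062 in numbers 1 to 3 over all genes, and -0.11, -0.09 and 0.0063 over the 89. So number 3, which showed little difference for respiratory genes, also showed little relation to length.

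**Figure D4:**
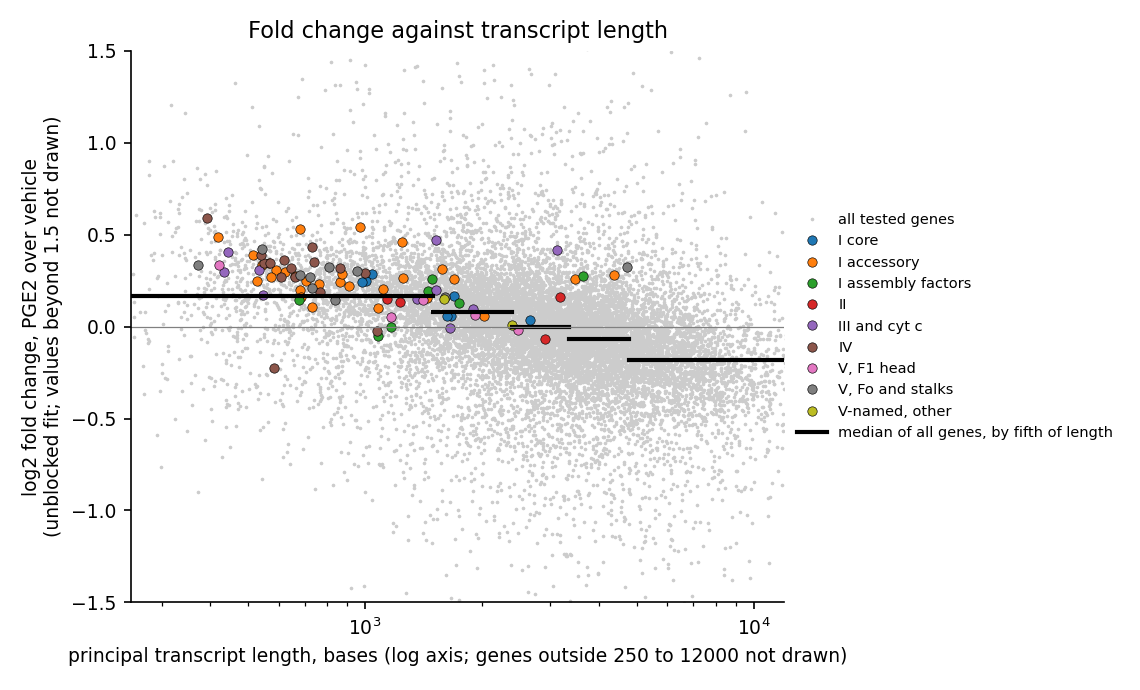
Log2 fold change in the unblocked fit against principal transcript length on a log axis, for all tested genes (grey) and the respiratory genes (coloured by group); black bars are the medians of all genes in 5 groups by length. Most respiratory genes lie in the shortest group, where the median of all genes is 0.17 and that of the respiratory genes 0.27. Within that group the median length is 976 bases for all genes and 731 for the respiratory genes.

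When the trend with principal length was taken out of each library, the median log2 fold change of the 89 genes was 0.08 and 69 were above 0. By group the corrected medians were 0.14 for complex IV, 0.10 for complex I accessory subunits, 0.10 for the Fo part and stalks, 0.08 for complex III and cytochrome c, 0.07 for complex I core, 0.04 for its assembly factors, -0.0053 for complex II and -0.01 for the F1 head. None of the 89 passed in the unblocked edgeR fit with this correction, with 23 at an unadjusted p under 0.05 against 16.2% of all genes. At the adjusted threshold 0.119% of all genes rose and 0.0461% fell. In the paired fit 14 rose and 1 fell, or Cox7a2l (-0.18 ± 0.054 SE; edgeR adjusted p = 0.0442), where 9.47% of all genes rose and 7.16% fell. With the longest annotated transcript in place of the principal one, 18 rose and 1 fell, again Cox7a2l, where 9.55% of all genes rose and 7.35% fell.

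Of the 25 genes that rose without the correction, 11 also rose with it, namely Ndufa1, Ndufs5, Ndufc1, Ndufa3, Ndufv3, Uqcrq, Uqcr11, Cycs, Cox7c, Cox6b1 and Atp5g1. Uqcrq was then at 0.36 ± 0.062 (SE; edgeR adjusted p = 0.00232), Ndufs5 at 0.34 ± 0.069 (0.00579), Ndufa1 at 0.28 ± 0.057 (0.00631) and Cycs at 0.45 ± 0.092 (0.0133). Cox8a was at 0.14 ± 0.051 and did not pass (edgeR adjusted p = 0.0729), nor did Cox6a1 (0.15; 0.0696) or Atp5j (0.15; 0.0688). Ndufb2, Ndufab1 and Ndufaf4 rose with the correction and not without it. Their principal transcripts are annotated at 4371, 3479 and 3632 bases, and those of Atp5g1 and Cycs at 4715 and 3123, so for these 5 genes the correction added to the fold change and depends on which transcript the cells make.

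**Figure D5:**
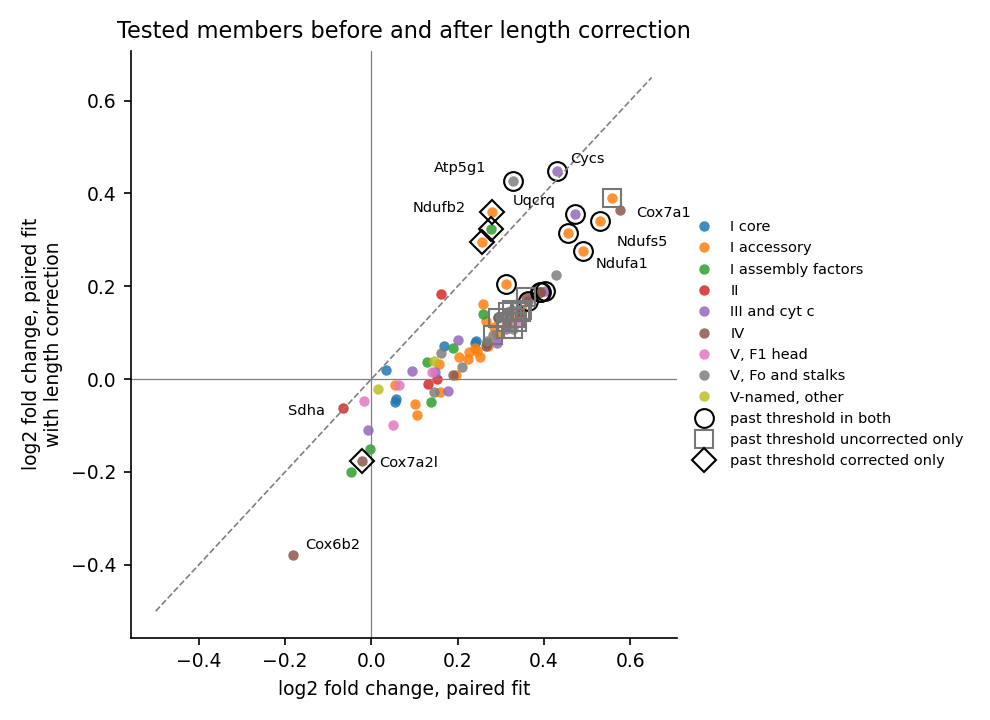
Log2 fold change of the 89 tested genes in the paired fit without (horizontal axis) and with (vertical axis) the length correction; the dashed line marks equal values, and open circles, squares and diamonds mark genes with an adjusted p under 0.05 in both fits, without the correction alone, or with it alone. Most genes lie below the dashed line; 11 are circled, and the diamond below 0 is Cox7a2l.

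Genes around the complexes were taken as lists by function, and 0 members of any of them passed in the unblocked edgeR fit. At an unadjusted p under 0.05, which 20.1% of all genes reached, that fit had 13 of 34 assembly factors of complexes II to V, 11 of 20 import genes, 3 of 19 regulators, 2 of 13 fusion, fission and cristae genes and 1 gene each of the citric acid cycle and the other complex I assembly factors. DESeq2 called 4 of the assembly factors of complexes II to V, 1 import gene and 1 regulator higher and 1 fusion, fission and cristae gene lower. It called 2.86% of all genes higher and 3.27% lower. In the paired fit 6 of 34 tested assembly factors of complexes II to V rose and 0 fell. That fit had 6.91% of all genes higher and 7.51% lower. The median log2 fold change of these factors was 0.18 in the unblocked fit. Hccs, which attaches heme to cytochrome c, was at 26.7, 28.8 and 28.4 CPM under vehicle and 35.9, 38.0 and 39.1 CPM under PGE2, without overlap and with its highest value in PGE2 library 3 (0.43 ± 0.071 SE; edgeR adjusted p = 0.0644, paired 0.0054, and 0.000982 paired with the length correction). The copper chaperone of complex IV, Cox17, was at 24.2, 24.4 and 27.6 CPM and at 30.2, 34.2 and 33.0 CPM, also without overlap (0.35 ± 0.087 SE; edgeR adjusted p = 0.116, paired 0.0193). Other complex I assembly factors had 0 of 9 past the threshold in the paired fit and a median of 0.06.

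In the paired fit 6.91% of all genes rose and 7.51% fell. Import into mitochondria had 4 of 20 higher and 0 lower in the paired fit with a median of 0.23. Of these, the channel protein Timm17a went from 63.8, 56.8 and 60.1 CPM to 80.5, 75.5 and 73.6 CPM without overlap (0.35 ± 0.073 SE; edgeR adjusted p = 0.0971, paired 0.0117). The small chaperone Timm8b was at 0.38 (edgeR adjusted p = 0.137, paired 0.0341).

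Of 19 tested regulators of mitochondrial transcription and biogenesis, 1 rose and 1 fell in the paired fit. These counts are near the shares of all genes, of which 6.91% rose and 7.51% fell. The median of the regulators was -0.04, or 0.01 with the length correction, and their median transcript was 3488 bases long. Slirp, an RNA-binding protein that stabilises mitochondrial transcripts, went from 32.0, 32.3 and 35.7 CPM to 44.8, 43.9 and 38.2 CPM without overlap (0.34; edgeR adjusted p = 0.121, paired 0.0338). Its binding partner Lrpprc went from 66.4, 56.1 and 47.3 CPM to 50.4, 42.4 and 39.6 CPM, lower within each number while the groups overlapped (-0.36; edgeR adjusted p = 0.221, paired 0.0133). Ppargc1a, a coactivator of mitochondrial biogenesis named after its values were seen, was at 1.77, 1.18 and 1.83 CPM and at 1.74, 1.20 and 1.22 CPM (edgeR adjusted p = 0.684).

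The citric acid cycle list had 0 of 14 past the threshold in the paired fit and a median of 0.03, with Mdh2 at 0.17 (edgeR paired adjusted p = 0.14) and Suclg1 at 0.16 (0.158). Carriers and porins had 0 of 6 and a median of 0.10, with Slc25a5 and Vdac3 at 0.14 each (edgeR adjusted p = 0.649 and 0.379), and the list for uncoupling and other electron entry had 0 of 7 and a median of 0.02. In the list for fusion, fission and cristae, the median was -0.07. Of its 13 genes Fis1 rose (0.30, edgeR adjusted p = 0.0453) and Mief1 fell (-0.47, edgeR adjusted p = 0.0174) in the paired fit. These counts are near the shares of all genes, of which 6.91% rose and 7.51% fell. With the length correction the medians were 0.14 for import, 0.07 for assembly factors of complexes II to V, 0.0060 for the other complex I assembly factors, -0.01 for the citric acid cycle, -0.0019 for carriers and porins, -0.05 for uncoupling and other electron entry and -0.03 for fusion, fission and cristae.

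Promoter sequences were set beside these values because several factors, among them nuclear respiratory factor 1, ETS proteins and YY1, are known to bind promoters of respiratory genes, and because the cyclic AMP response element is bound by CREB. RefSeq promoters of GRCm38.p6, 300 bases around each start, were found for 74 of the 93 genes as 79 promoters. The NRF1 motif, a palindrome whose letters are the capitals in the stretches marked NRF1 below, was in 8.86% of the 79, against 0.971% of all 32851 promoters. The YY1 letters AAGATGGC were in 11.4% against 2.75%, the cyclic AMP response element TGACGTCA in 6.33% against 1.79%, and the ETS letters CCGGAAGT in 6.33% against 3.89%, each searched on both strands. No motif contains another of them. The comparison set was every promoter, whether or not its gene was tested here, and was not matched for base composition. The cyclic AMP response element was in the promoters of Cycs, Ndufa10, Ndufa11, Ndufb2 and Uqcrfs1, of which Cycs and Ndufa11 rose in the paired fit. A match describes the letters and is not evidence of binding. The stretches below show the matches in 4 genes that rose in the paired fit, in the direction of the gene, with the matched letters in capitals.
Cycs, chr6:50566686-50566783, minus strand, cyclic AMP response element: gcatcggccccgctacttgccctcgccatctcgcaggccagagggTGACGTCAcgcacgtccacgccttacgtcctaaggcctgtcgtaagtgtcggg
Ndufa11, chr17:56717559-56717656, plus strand, cyclic AMP response element: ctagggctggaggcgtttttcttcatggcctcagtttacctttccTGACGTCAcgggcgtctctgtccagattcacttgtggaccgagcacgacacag
Ndufa11, chr17:56717657-56717756, plus strand, NRF1: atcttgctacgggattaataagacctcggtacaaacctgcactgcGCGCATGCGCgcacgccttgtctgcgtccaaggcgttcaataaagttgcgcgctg
Cox6a1, chr5:115349066-115349165, minus strand, NRF1: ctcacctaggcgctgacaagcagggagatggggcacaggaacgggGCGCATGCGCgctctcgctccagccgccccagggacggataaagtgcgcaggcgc
Uqcr11, chr10:80406835-80406932, minus strand, ETS: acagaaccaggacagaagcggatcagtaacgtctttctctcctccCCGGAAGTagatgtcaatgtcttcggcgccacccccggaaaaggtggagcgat

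The Ndufa11 promoter holds both elements, at -158 to -151 and -60 to -51 bases from its start. Its values were 39.4, 36.5 and 40.3 CPM under vehicle and 51.0, 48.6 and 47.0 CPM under PGE2, with no overlap (0.33 ± 0.071 SE; edgeR adjusted p = 0.0971, paired 0.0196, and 0.164 paired with the length correction). In Cycs the element lies at -169 to -162, in Cox6a1 at -162 to -153 and in Uqcr11 at -66 to -59. Among genes with a promoter, 22 rose in the paired fit and 50 tested genes did not. The NRF1 motif was in 3 of the 22 and 4 of the 50, and the ETS letters in 3 and 2. The YY1 letters were in 4 and 5, and the cyclic AMP response element in 2 and 3. These differences were not tested.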

How the data were processed

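The authors deposited whole-number counts per gene for 3 vehicle and 3 PGE2 libraries. Per the submitters' processing notes, reads were placed on mm10; the aligner, the counter and its use of strand, and the gene annotation were not given in the sources used here. Exons of 31 of the 93 genes overlap another gene, 28 of them on the opposite strand (Atp5j with Gabpa, for example), and many of these genes have pseudogenes, so those counts are uncertain. Members and lists were chosen with earlier results of these data known.

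Counts were tested with edgeR 4.0.16 (R 4.3.3; filterByExpr, trimmed mean of M values, robust quasi-likelihood, Benjamini-Hochberg over 15186 genes). Deviations from group means correlated at 0.621, 0.169 and 0.422 for same-numbered libraries, and at 0.252 (PGE2 2 with vehicle 3) and 0.145 (PGE2 3 with vehicle 2) across numbers. All 3 same-numbered values exceed 0.1, so the numbers were treated as pairs, on evidence from the data and not the labels. The cross-number values just given exceed 0.1 too, so this rule does not establish that the libraries are pairs. The fit with the number as a block is the paired fit. CPM use the edgeR scaling, and log2 differences within numbers use a prior count of 2. The length correction adds a lowess trend (span 0.3) per library to the offset. It uses APPRIS principal transcripts of GENCODE M21 on GRCm38, the assembly also called mm10, and was added after the data were seen; the longest transcript had been planned. DESeq2 1.42.0, other scalings and filters and omission of libraries were alternatives. Scripts were tested on simulated data. Named genes were, in each group, the 3 with the smallest paired adjusted p and the lowest fold change, with isoform families, complex II and 2 genes per further list.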

Additional observations from a re-analysis of the deposited data

How the results depend on the processing

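Without the replicate block 52 genes passed (32 higher, 20 lower). The count was 2189 with the replicate block (paired fit), 932 by DESeq2, 285 without the low-count filter, and 65 with totals alone (31 higher, 34 lower). Length correction gave 15 (longest transcript) and 25 (principal), or 2566 and 2525 with the block; totals alone with the block gave 2335 (748 higher, 1587 lower, against 1049 and 1140). Leaving out 1 library gave 0 to 120; it was 0 by edgeR without vehicle library 2 or 3 or PGE2 library 2 or 3 (1494 to 3697 genes at an unadjusted p under 0.05; DESeq2 was not run there). The block without number 1, 2 or 3 gave 1372, 1160 and 5097. Respiratory genes higher, 0 unblocked, numbered 25 with the block, 14 by DESeq2, 3 without the filter, 18 and 14 with the block and length correction by longest and principal transcript (1 lower in each, Cox7a2l), 14 with totals alone and the block, and 5, 5 and 69 with the block and number 1, 2 or 3 left out. Their median stayed above 0 under all 20 alternatives (0.08 to 0.35). The count higher in all 3 numbers, 54, was 50 with relative log expression factors and 28 with totals alone. Direction turned for named genes with log2 fold changes near 0, and for Cox6b2, at -0.22 with all libraries unblocked. It also turned with either length correction for Atp5o (0.15) and Sdhd (0.13), whose groups did not overlap. With totals alone Atp5sl was -0.031 and Ndufs1 -0.0053 (-0.028 and -0.0089 with the block). With longest lengths Atp5b was -0.032, Atp5o -0.024, Atp5sl -0.045, Ndufa10 -0.031, Ndufs1 -0.0056 and Sdhd -0.016 (with the block -0.030, -0.023, -0.044, -0.032, -0.0065 and -0.016). With principal lengths Atp5b was -0.014, Atp5o -0.029, Atp5sl -0.022, Ndufa10 -0.012 and Sdhd -0.011 (with the block -0.013, -0.029, -0.020, -0.012 and -0.011). With 1 library left out the ranges were Atp5sl -0.046 to 0.090, Uqcrc1 -0.057 to 0.051, Cox7a2l -0.10 to 0.024, Cox6b2 -0.45 to 0.029, Ndufs1 -0.033 to 0.072, Atp5b -0.012 to 0.13, Ndufaf6 -0.12 to 0.0057 and Atp5a1 -0.043 to 0.0016. In the block, Atp5sl was -0.019 without number 1 and -0.027 without number 2, Ndufs1 -0.0079 without number 1, and without number 3 Cox6b2 was 0.099, Cox7a2l 0.029 and Uqcrc1 0.032. The cause of these changes was not tested. Principal lengths and totals with the block were added after the data were seen. With 3 counts worth up to 0.143 CPM, Cox6a2, Cox8b, Cox7b2 and Cox8c were too low for a test.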
